A study of Mus musculus with 12 samples.

Results

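Messenger RNA of 9 genes that supply arginine and turn it into nitric oxide, ornithine and polyamines was examined in mouse monocytes. The genes were chosen by symbol, with earlier results of these data known. They are the arginine carriers Slc7a1 and Slc7a2, the inducible nitric oxide synthase Nos2 and its cofactor enzyme Gch1. The rest are the arginine recycling enzymes Ass1 and Asl, the arginases Arg1 and Arg2, and the ornithine decarboxylase Odc1. All 9 were found among the 53819 genes of the count tables, and all 9 were among the 13151 genes with enough reads to be tested. RNA sequencing covered 12 libraries of monocytes from the bone marrow of C57Bl6J mice without genetic changes, in 4 groups of 3. Untreated cells (NC) were compared with cells that had spent a night beside platelets before these were washed off (PLT), with cells that received LPS, a lipopolysaccharide of the bacterial outer membrane and ligand of Toll-like receptor 4 (LPS), and with cells that had first met platelets overnight, were washed and received LPS afterwards (PLT_LPS). Doses and the length of the LPS step were not used here. No label states that replicates are different animals or dishes, so every p-value refers to variation among libraries that may be purely technical.

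Arginine enters macrophages mainly through cationic amino acid carriers and is then shared between competing enzymes. Nitric oxide synthase turns it into nitric oxide and citrulline with the help of tetrahydrobiopterin, whose synthesis starts with the Gch1 product, and citrulline can be rebuilt into arginine by Ass1 and Asl in turn. Arginase splits arginine into urea and ornithine, from which Odc1 makes putrescine, the first polyamine. In mouse macrophages Nos2 is a textbook marker of the response to bacterial products, and Arg1 of the response to interleukin-4 and of tissue repair.

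Total counts ran from 20060867 to 32155727 per library, so that 3 counts corresponded to 0.0854 to 0.163 CPM, the usual unit of counts scaled to library depth. Levels in CPM use library sizes corrected by the TMM method of edgeR. The 8 monocyte markers, among them Lyz2, Csf1r and Ccr2, were all detected in every group, at levels that differed between groups. In untreated, platelet, LPS and platelet plus LPS libraries, group means were 214, 147, 58.8 and 43.8 CPM for Ccr2. They were 134, 161, 26.0 and 84.2 CPM for Cx3cr1 and 38.3, 38.0, 82.1 and 120 CPM for Ly6c2. Csf1r was at 1372, 1042, 1708 and 1488 CPM and Lyz2 at 31194, 37834, 28263 and 32081 CPM. Platelet replicate 1 was unlike the rest in its group: 0.886% of its counts were mitochondrial, against 0.431 to 0.600% in the other 11 libraries, and its description label reads Control although platelets are named in its title and treatment. Log2 values without it are given for most genes named as changed with platelets alone.

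Platelets alone went with more arginase, Ass1 and Odc1 messenger RNA. Arg1, Arg2, Ass1 and Odc1 rose in platelet-exposed cells, by 3.27-fold, 4.01-fold, 2.34-fold and 1.26-fold, and 0 of the 9 were lower, also at an unadjusted p under 0.05 (edgeR) and by DESeq2. By the same test (edgeR's quasi-likelihood test, Benjamini-Hochberg adjusted p under 0.05), 3.63% of all genes tested were higher and 2.86% lower. All 3 platelet libraries lay above all 3 untreated ones for 6 of the 9 members, against 12.5% of all genes, and below them for 0, against 12.6%. The median log2 fold change over the 8 members other than Nos2 was 0.36, against 0.00 over all genes tested. Leaving out platelet replicate 1 gave 4 members higher and 0 lower as well. At this depth Nos2 was not detectable in untreated cells, and in platelet-exposed cells it was found in a single library. Since RNA was taken from whole samples, fewer or more cells of a type and less or more RNA per cell cannot be told apart here or in the results that follow.

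LPS alone went with the opposite movement of Arg1 from that of the other inducible members. Nos2, Slc7a2, Arg2, Ass1 and Gch1 rose, and Arg1 fell 1.81-fold. Over all genes tested, 27.7% were higher and 23% lower, against which the members are to be read: since Nos2 was tested only because of its LPS-treated libraries, these are 4 higher and 1 lower of the other 8. The LPS libraries lay entirely above the untreated ones for 6 members, against 32.1% of all genes, and entirely below for 1, against 28.5%. Nos2 is among these 6, and its separation was a condition of its being tested. The others were Slc7a2, Arg2, Ass1, Asl and Gch1. The median over the 8 members other than Nos2 was 1.36, against 0.01 over all genes tested. With library size alone as the scaling, the median of all genes moved to −0.37 and the split of all genes called turned from 3640 higher and 3021 lower to 2133 higher and 5975 lower, with 5 members higher and 4 lower.

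Platelets before LPS, compared with LPS alone, went with more Nos2 and more Arg1 together. Nos2, Arg1, Ass1 and Odc1 rose, by 2.14-fold, 3.97-fold, 1.77-fold and 1.25-fold, and 0 of the 9 were lower, also at an unadjusted p under 0.05 (edgeR) and by DESeq2. Of all genes tested, 4.41% were higher and 2.87% lower. Without overlap, 6 members were above LPS alone, against 14.7% of all genes, and 1, Asl, below, against 12.4%. The median over the 8 members other than Nos2 was 0.24, against 0.01 over all genes tested. Among platelet-exposed cells, LPS had 5 members higher, or 4 of 8 without Nos2, and 1 lower, Arg1, with 27.6% of all genes tested higher and 21.8% lower. Here 5 members lay above without overlap (30.2% of all genes) and 2 below (24.6%). Nos2 is among the 5, with the limit given for LPS alone, and the others were Slc7a2, Arg2, Ass1 and Gch1. For that comparison library size alone gave 2194 genes higher and 5749 lower, where the main scaling gave 3627 and 2871, with 5 members higher and 4 lower. The interaction, which subtracts the platelet difference seen in untreated cells from the one seen under LPS, passed the threshold for Arg2 alone among the 9, in the lower direction, with 0.722% of all genes lower and 0.859% higher.

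**Figure D1:**
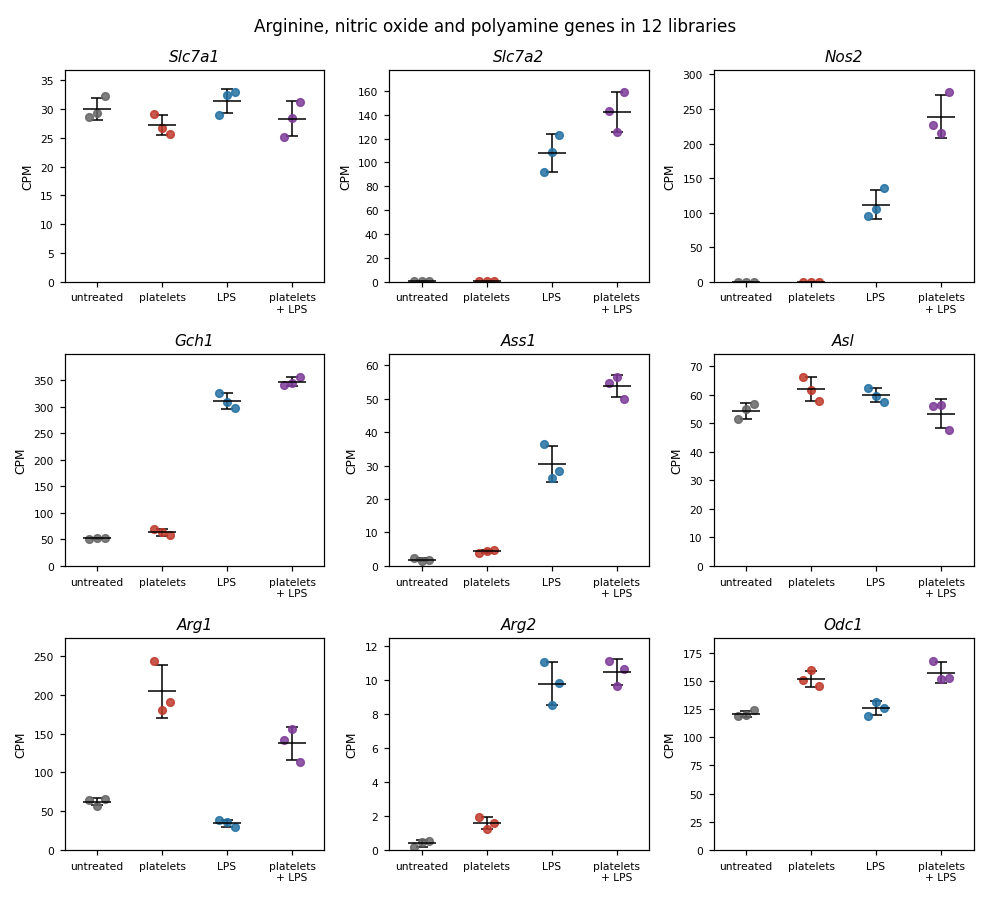
CPM of the 9 genes in each of the 12 libraries, with each gene on its own axis from 0; coloured points are libraries, black lines the group mean ± SD (n = 3). Arg1 lay highest in the platelet libraries and lowest in the LPS libraries, while Nos2 and Slc7a2 lay near 0 in the 6 libraries without LPS.

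The carriers differed from each other. Slc7a1, the cationic amino acid carrier present in most cells, was at 28.6, 29.3 and 32.3 CPM in untreated, 29.2, 26.8 and 25.7 CPM in platelet, 29.1, 32.5 and 32.9 CPM in LPS and 25.2, 28.5 and 31.3 CPM in platelet plus LPS libraries. The 4 groups overlapped, and no comparison of Slc7a1 passed the threshold. Its log2 difference was −0.14 with platelets alone (95% interval −0.37 to 0.08, adjusted p = 0.482) and 0.06 with LPS alone (−0.16 to 0.29, adjusted p = 0.649), and the latter became −0.31 (adjusted p = 0.0178) when library size alone was the scaling.

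Slc7a2, the carrier that activated macrophages add, was at 0.596, 0.281 and 0.850 CPM in untreated and 0.528, 0.750 and 0.968 CPM in platelet libraries. It reached 92.0, 109 and 123 CPM with LPS and 143, 126 and 159 CPM with platelets plus LPS. The libraries with and without LPS lay far apart, and the 2 groups without LPS overlapped. With LPS alone it rose 185-fold (log2 7.53, SE 0.29, adjusted p = 2.22e-13) and among platelet-exposed cells 186-fold (log2 7.54, SE 0.25, adjusted p = 1.45e-13). Every platelet plus LPS library lay above every LPS library, which held in the higher direction for 14.7% of all genes tested, but the log2 difference of 0.40 (SE 0.15) had an adjusted p of 0.140. Without a filter on low counts its adjusted p was 0.0114.

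Nos2 had 0 counts in each untreated library, 0, 0 and 6 counts in the platelet libraries, and 94.5, 105 and 135 CPM with LPS. With platelets before LPS it was at 227, 215 and 274 CPM, and every one of these libraries lay above every LPS library. LPS raised Nos2 at least 1072-fold over untreated cells, taking 3 counts in each untreated library as the floor (adjusted p = 7.64e-12). Among platelet-exposed cells the ratio was 3805, with a 95% counting interval of 1748 to 10369, from 18257 against 6 summed counts, and these 6 counts came from platelet replicate 3. The 2.14-fold difference between platelets plus LPS and LPS alone (log2 1.10, SE 0.17, adjusted p = 0.00166) was larger than the spread within either group, 239 ± 31.2 against 112 ± 21.2 CPM (SD, n = 3 each). Nos2 passed the filter on low counts through the 6 LPS-treated libraries only, so its difference between cells with and without LPS was a condition of its being tested.

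Gch1, GTP cyclohydrolase 1, which makes the first intermediate of tetrahydrobiopterin, was at 51.0, 51.6 and 53.4 CPM in untreated and 69.8, 62.9 and 57.3 CPM in platelet libraries. It was at 325, 309 and 297 CPM with LPS and at 341, 344 and 357 CPM with platelets plus LPS. It rose 5.97-fold with LPS alone (log2 2.58, SE 0.08, adjusted p = 7.29e-13) and 5.48-fold with LPS among platelet-exposed cells (log2 2.45, SE 0.08, adjusted p = 1.34e-12). The platelet libraries lay above the untreated ones and the platelet plus LPS libraries above the LPS ones, yet neither difference passed the threshold (log2 0.28, adjusted p = 0.0604, and log2 0.16, adjusted p = 0.311). The former had an adjusted p of 0.0243 without platelet replicate 3, 0.0372 with the size factors of DESeq2 and 0.00315 by its Wald test.

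Ass1, argininosuccinate synthase, which joins citrulline and aspartate, was at 2.24, 1.54 and 1.80 CPM in untreated and 3.84, 4.60 and 4.61 CPM in platelet libraries. It was at 36.6, 26.4 and 28.3 CPM with LPS and at 54.7, 56.6 and 50.1 CPM with platelets plus LPS. No group overlapped another, and the order from untreated through platelets and LPS to platelets plus LPS was the same whichever library was taken. Ass1 rose 2.34-fold with platelets alone (log2 1.22, SE 0.18, adjusted p = 0.000452), 16.3-fold with LPS alone (log2 4.03, SE 0.17, adjusted p = 7.97e-12) and 1.77-fold with platelets before LPS over LPS alone (log2 0.82, SE 0.13, adjusted p = 0.00127).

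Asl, argininosuccinate lyase, which acts after Ass1 and releases arginine, stayed between 47.6 and 66.3 CPM in all 12 libraries. Its group values were 54.3 ± 2.71 CPM untreated, 61.9 ± 4.20 CPM with platelets, 59.8 ± 2.49 CPM with LPS and 53.3 ± 4.99 CPM with platelets plus LPS (SD, n = 3). None of the 5 comparisons of Asl passed the threshold. The nearest was LPS among platelet-exposed cells, at log2 −0.21 (SE 0.09, adjusted p = 0.0639). That difference passed the threshold under 5 alternatives, with adjusted p = 0.0463 without platelet replicate 1, 0.0465 without platelet replicate 3, 0.0209 with DESeq2 size factors, 0.00807 by DESeq2's Wald test and 4.06e-05 with library size alone, where it was −0.57. The difference with LPS alone, 0.14 on the log2 scale, became −0.24 (adjusted p = 0.0244) with library size alone.

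Promoter windows from RefSeq (GRCm38.p6, 250 bases before to 50 after a start) were matched by symbol for 4 of the 9 members, Ass1, Gch1, Odc1 and Slc7a1, the last with 2 windows. Those of Nos2, Arg1, Arg2, Asl and Slc7a2 were not used here. The 250 bases before the start of Ass1 and Gch1, the LPS-induced members among the 4, are shown 5′ to 3′ on the strand of the gene, Ass1 at chr2:31470020-31470269 on the plus strand and Gch1 at chr14:47189414-47189663 on the minus strand. Capitals mark matches to the motifs searched, an E-box in Ass1 and a TATA match in Gch1.
Ass1: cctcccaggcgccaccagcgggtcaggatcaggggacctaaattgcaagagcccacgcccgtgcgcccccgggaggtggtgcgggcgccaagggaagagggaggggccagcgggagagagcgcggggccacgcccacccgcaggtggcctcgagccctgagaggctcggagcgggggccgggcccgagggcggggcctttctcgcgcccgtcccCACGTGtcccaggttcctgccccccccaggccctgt
Gch1: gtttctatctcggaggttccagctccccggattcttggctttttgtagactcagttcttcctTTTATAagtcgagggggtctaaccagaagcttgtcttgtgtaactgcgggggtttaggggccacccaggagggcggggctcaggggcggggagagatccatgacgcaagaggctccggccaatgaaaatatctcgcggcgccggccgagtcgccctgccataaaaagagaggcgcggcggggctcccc

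Both strands of the 5 windows were searched for 10 motifs, and the share of all 32851 windows holding each is given here. The Ass1 window held the E-box CACGTG at −36 to −31, found in 7.15% of all windows, which contains the HIF core ACGTG (19.6%) on both strands. The Gch1 window held TATAAA, read on the other strand, at −188 to −183 (13.6%). The first Slc7a1 window held AP-1, TGANTCA (7.81%), and the second held GAS, TTCNNNGAA (8.30%), and TATAAA. No motif of the 10 was found in the Odc1 window. The letters searched for NF-kB (1.63%), ISRE (3.44%), CRE, TGACGTCA (1.79%), C/EBP, TTGCNNAA (10.8%), and the ATF4 composite, TGATGNAA (3.97%), were in none of the 5. A match is a run of letters and was not tested as a binding site, and these windows do not cover distant elements.

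Arg1, the cytosolic arginase, was at 64.3, 57.3 and 65.8 CPM in untreated libraries and at 244, 180.0 and 190.2 CPM in platelet libraries, the highest being platelet replicate 1. It was at 38.4, 35.9 and 29.2 CPM with LPS and at 142, 156 and 114 CPM with platelets plus LPS. No group overlapped another, and every platelet plus LPS library lay above every untreated one. Arg1 was 3.27-fold higher with platelets alone (log2 1.71, SE 0.14, adjusted p = 1.30e-06), or 1.59 on the log2 scale without platelet replicate 1 (adjusted p = 1.26e-07). It was 1.81-fold lower with LPS alone (log2 −0.85, SE 0.14, adjusted p = 0.000105) and 1.49-fold lower with LPS among platelet-exposed cells (log2 −0.57, SE 0.14, adjusted p = 0.00249). With LPS, prior platelets raised it 3.97-fold (log2 1.99, SE 0.14, adjusted p = 2.92e-07). Its interaction was 0.28 on the log2 scale, with a 95% interval of −0.14 to 0.70 (adjusted p = 0.705).

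Arg2, the mitochondrial arginase, was at 0.175, 0.456 and 0.544 CPM in untreated libraries, from 5, 13 and 16 counts, and at 1.97, 1.25 and 1.57 CPM in platelet libraries. It was at 11.04, 8.53 and 9.81 CPM with LPS and at 11.1, 9.64 and 10.6 CPM with platelets plus LPS. The first 2 groups lay apart from each other and from the LPS-treated groups, and the 2 LPS-treated groups overlapped. Arg2 rose 4.01-fold with platelets alone (log2 2.0, SE 0.33, adjusted p = 0.000924), 24.7-fold with LPS alone (log2 4.62, SE 0.31, adjusted p = 1.21e-09) and 6.57-fold with LPS among platelet-exposed cells (log2 2.72, SE 0.23, adjusted p = 9.19e-08). With LPS, prior platelets gave a log2 difference of 0.10 (95% interval −0.36 to 0.55, adjusted p = 0.864). The interaction was −1.91 on the log2 scale (95% interval −2.74 to −1.07, SE 0.39, adjusted p = 0.0191). Its adjusted p was 0.0519 without untreated replicate 2, 0.0563 without LPS replicate 1 and 0.0542 without platelet plus LPS replicate 2, with log2 values of −2.02, −1.81 and −1.85, and 0.0138 without platelet replicate 1.

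Odc1, ornithine decarboxylase, the first enzyme of polyamine synthesis, was at 119, 119.6 and 124 CPM in untreated and 151, 159.7 and 145 CPM in platelet libraries. It was at 119, 131 and 126 CPM with LPS and at 168, 152 and 153 CPM with platelets plus LPS. Both platelet-exposed groups lay above both groups without platelets. The rise was 1.26-fold with platelets alone (log2 0.33, SE 0.08, adjusted p = 0.0201) and 1.25-fold with platelets before LPS over LPS alone (log2 0.33, SE 0.08, adjusted p = 0.0200). The call for platelets alone was lost without untreated replicate 1 (adjusted p = 0.0935), untreated replicate 2 (0.0991) or platelet replicate 2 (0.0843), and with no filter on low counts (0.0593). The call with LPS was lost without LPS replicate 1 (0.0948), LPS replicate 3 (0.0574) or platelet plus LPS replicate 1 (0.112). LPS itself gave a log2 difference of 0.06 without platelets (95% interval −0.11 to 0.22, adjusted p = 0.597), which became −0.32 (adjusted p = 0.00325) with library size alone.

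**Figure D2:**
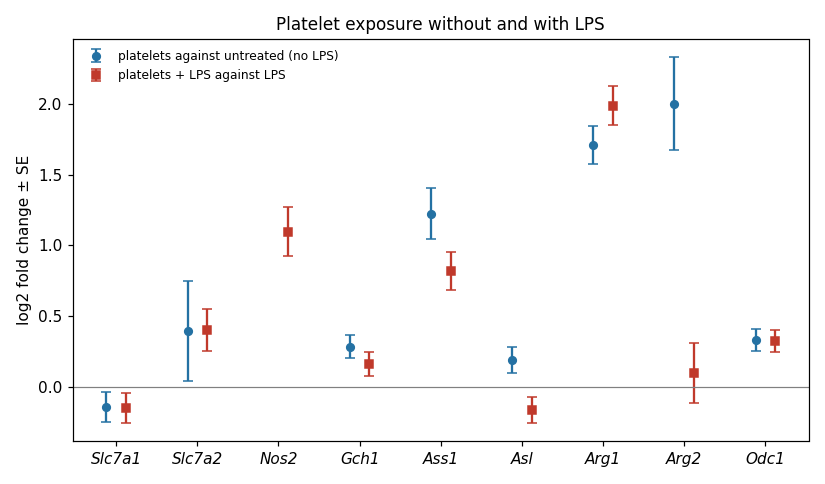
Log2 fold change ± SE of the 9 genes for platelet exposure without LPS (blue circles) and before LPS (red squares), from the fit of all 12 libraries. Nos2 without LPS is left out because it had 0 counts in 5 of these 6 libraries and 6 in platelet replicate 3; Arg1, Ass1 and Odc1 lay above 0 in both comparisons, and Arg2 was at 2.0 without LPS and 0.10 with it.

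**Figure D3:**
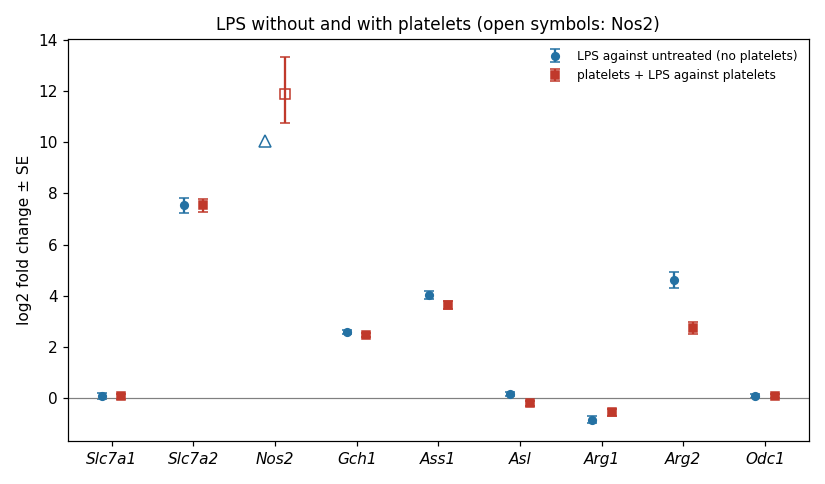
Log2 fold change ± SE of the 9 genes for LPS without platelets (blue circles) and after platelets (red squares). The open triangle is the lower bound for Nos2 without platelets, and the open square its ratio after platelets with a 95% counting interval. Slc7a2, Ass1, Arg2 and Gch1 lay above 0 and Arg1 below it in both comparisons. Slc7a1, Asl and Odc1 lay near 0, and all were negative in both comparisons when library size alone was the scaling.

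Levels of different genes were compared per kilobase of exon, using merged exon lengths from GENCODE M21, which may differ from the annotation the counts were made with. In untreated cells the order was Odc1 (35.5 ± 0.756 CPM per kb), Arg1 (28.0 ± 2.02), Asl (11.2 ± 0.560), Gch1 (8.32 ± 0.201), Slc7a1 (2.61 ± 0.168), Ass1 (0.772 ± 0.147), Arg2 (0.274 ± 0.135), Slc7a2 (0.0630 ± 0.0312) and Nos2 (0 counts). With platelets Arg1 came first, at 91.8 ± 15.3 CPM per kb against 44.6 ± 2.10 for Odc1, and the order was otherwise that of untreated cells. In both groups no gene's 3 libraries overlapped those of the next gene in the order.

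With LPS alone Gch1 came first, at 49.7 ± 2.30 CPM per kb, followed by Odc1 at 36.9 ± 1.80, Nos2 at 25.3 ± 4.81 and Arg1 at 15.5 ± 2.15. Nos2 lay above Arg1 in these libraries without overlap. Arg1 and Ass1 overlapped, as did Ass1 (12.6 ± 2.24) with Asl (12.4 ± 0.515) and Asl with Slc7a2 (11.8 ± 1.72). With platelets plus LPS the first 4 were Arg1 at 61.6 ± 9.72 CPM per kb, Gch1 at 55.5 ± 1.32, Nos2 at 54.1 ± 7.06 and Odc1 at 46.2 ± 2.66, and each overlapped the next. Per kilobase of merged exon, Arg1 and Nos2 messenger RNA were thus at levels within each other's spread in these libraries, while Arg2 stayed at 7.33 ± 0.535 and Slc7a1 at 2.46 ± 0.265. That overlap depends on the lengths used. Before division by length, Nos2 (215 to 274 CPM) lay above Arg1 (114 to 156 CPM) in the same libraries.

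**Figure D4:**
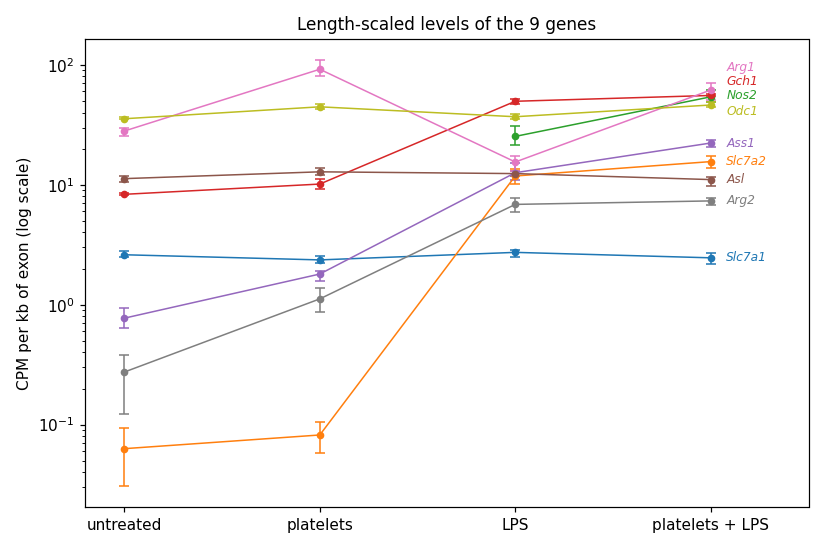
Mean level per kilobase of exon of the 9 genes in the 4 groups, on a log axis, with bars from the lowest to the highest of 3 libraries and lines that only join the points of a gene. Nos2 is drawn for the LPS-treated groups only, where it was detected in every library; Arg1, Gch1, Nos2 and Odc1 came together between 46.2 and 61.6 CPM per kb with platelets plus LPS.

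Other genes of the pathway were taken from 5 lists, also chosen with earlier results of these data known. The lists hold 84 genes, of which 83 were found and 68 tested. Their counts stand beside 3.63% of all genes higher and 2.86% lower with platelets alone, 27.7% and 23% with LPS alone, and 4.41% and 2.87% with platelets before LPS over LPS alone, and their medians beside all-gene medians of 0.00, 0.01 and 0.01. Of 13 tested genes of nitric oxide and tetrahydrobiopterin synthesis, 2 were higher and 0 lower with platelets alone, Gchfr and Pts, with a median log2 of 0.19. No gene of the list was lower at an unadjusted p under 0.05 (edgeR) or by DESeq2 either. Gchfr, the feedback regulatory protein that binds the Gch1 enzyme, was at 0.316, 0.245 and 0.578 CPM in untreated and 5.49, 3.06 and 2.99 CPM in platelet libraries, without overlap. It rose 9.97-fold with platelets alone (log2 3.32, SE 0.41, adjusted p = 9.62e-05), or 3.0 on the log2 scale without platelet replicate 1, which held the highest level. With platelets before LPS it was 4.78-fold above LPS alone, at 1.01 ± 0.141 against 0.199 ± 0.113 CPM (SD, n = 3, adjusted p = 0.00899), the only gene of the list called there, or 1 of 2 without platelet replicate 1. Gchfr passed the filter on low counts only because of the platelet-exposed libraries. Its difference between cells with and without platelets was thus a condition of its being tested. The same limit holds for its place in the platelet counts of this list. Pts, the second enzyme of tetrahydrobiopterin synthesis, rose 1.47-fold with platelets alone, from 17.6 ± 1.42 to 25.9 ± 2.76 CPM (adjusted p = 0.0199), and lost the call without untreated replicate 1 (adjusted p = 0.103), untreated replicate 2 (0.0926) or platelet replicate 2 (0.0643). With LPS alone 0 of the 13 were higher (27.7% of all genes) and 5 lower (23% of all genes). At an unadjusted p under 0.05 (edgeR) 1 was higher, against 0 by DESeq2. Among the lower ones were Ddah2, which degrades methylated arginines that inhibit nitric oxide synthase (3.73-fold lower, adjusted p = 1.32e-08), and the calmodulin gene Calm2 (1.46-fold). With library size alone as the scaling 11 of the 13 were lower with LPS, and 14 of 21 polyamine genes where the main scaling gave 9. Of all 13151 genes tested, that scaling gave 5975 lower, where the main scaling gave 3021.

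Genes around ornithine, proline and creatine gave 1 large platelet difference. Gatm, which transfers the amidino group of arginine to glycine in creatine synthesis, was at 15.7, 18.6 and 17.4 CPM in untreated, 37.1, 37.1 and 35.0 CPM in platelet, 21.8, 25.4 and 19.8 CPM in LPS and 92.0, 97.6 and 87.0 CPM in platelet plus LPS libraries. Every platelet-exposed library lay above every library without platelets. It rose 2.11-fold with platelets alone (log2 1.08, SE 0.10, adjusted p = 8.27e-06) and 4.12-fold with platelets before LPS over LPS alone (log2 2.04, SE 0.10, adjusted p = 1.57e-08), and the interaction was 0.96 (SE 0.15, adjusted p = 0.00319). Glul, which makes glutamine, fell 1.39-fold with platelets alone (adjusted p = 0.0159) and 2.82-fold with LPS alone (adjusted p = 1.32e-08). Its 1.33-fold fall with platelets before LPS (adjusted p = 0.0377) was lost when any library of the 2 groups other than LPS replicate 3 was left out (adjusted p = 0.0867 to 0.137), and its fall with platelets alone without untreated replicate 2 (0.0621), untreated replicate 3 (0.0673) or platelet replicate 2 (0.0782). Of 11 tested genes, 1 was higher and 1 lower in each platelet comparison (medians −0.02 and −0.11), and 1 higher and 5 lower with LPS alone (median 0.06), among them Slc25a15, the mitochondrial ornithine carrier (1.88-fold lower), and Aldh4a1, of proline breakdown (1.54-fold lower). The urea cycle genes Cps1, Otc and Nags had 0 counts in all libraries.

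Among the other carriers the largest fold change was that of Slc7a11 with LPS. Slc7a11, the cystine and glutamate exchanger, went from 24.5 ± 0.763 to 1150.0 ± 97.7 CPM with LPS alone (46.9-fold, adjusted p = 1.48e-13), and Slc3a2, the heavy chain that partners several Slc7 carriers, rose 1.71-fold. Slc7a6, a carrier of the light chain family that exchanges cationic for neutral amino acids, fell 1.87-fold. Of 9 tested carriers, 2 were higher and 2 lower with LPS alone (median 0.23), and 0 higher and 1 lower in each platelet comparison (medians −0.05 and −0.02). At an unadjusted p under 0.05 (edgeR) 1 was higher with platelets alone and 0 with platelets before LPS, against 0 in both by DESeq2. The lower one was Slc7a11 both times, and 1 more carrier was higher in each of these comparisons without platelet replicate 1. It fell 1.61-fold with platelets alone (adjusted p = 0.00950) and 1.42-fold with platelets before LPS over LPS alone (adjusted p = 0.0350). The latter call was lost when any of the 6 libraries was left out (adjusted p = 0.0617 to 0.155) and with library size alone (0.0563).

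Polyamine genes moved in both directions. Of 21 tested genes, 4 were higher and 9 lower with LPS alone (median −0.40, all genes 27.7% and 23%). With platelets alone 2 were higher and 3 lower (median 0.07, all genes 3.63% and 2.86%). With platelets before LPS over LPS alone 1 was higher and 0 lower (median −0.02). In that comparison 2 were lower at an unadjusted p under 0.05 (edgeR) and 1 by DESeq2. Sat1 and Smox, which start polyamine breakdown, rose 2.93-fold and 1.79-fold with LPS, and Atp13a2, a lysosomal polyamine exporter, fell 1.89-fold. With platelets alone Paox, which oxidises acetylated polyamines, rose 1.87-fold (adjusted p = 0.00950), Sat1 rose 1.28-fold (adjusted p = 0.0346) and Azin1, which protects Odc1 from degradation, fell 1.33-fold (adjusted p = 0.0373). Each of the 3 calls rested on particular libraries. Paox was lost without untreated replicate 2 (adjusted p = 0.0621), Sat1 without untreated replicate 1, untreated replicate 2 or platelet replicate 2 (0.163, 0.146 and 0.0569), and Azin1 without any library of the 2 groups other than platelet replicate 3 (0.0589 to 0.204). The other 2 lower genes, Mat2a and Atp13a3, are named after their values were seen. Without platelet replicate 1 the counts were 2 higher and 0 lower for platelets alone and 2 higher and 2 lower for platelets before LPS over LPS alone. Azin2, a relative of Azin1, was 1.93-fold higher with platelets before LPS (adjusted p = 0.0268), a call lost without LPS replicates 2 or 3 or platelet plus LPS replicates 1 or 3 (0.0686 to 0.103).

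Of 14 transcription factors known to act on Nos2 or Arg1, 8 were higher and 5 lower with LPS alone (median 0.53, against 0.01 over all genes, of which 27.7% were higher and 23% lower), among them Irf1 (16.2-fold) and Nfkb1 (10.1-fold). With platelets alone 0 were higher (2 at an unadjusted p under 0.05 by edgeR, 1 by DESeq2) and 1 lower, Pparg, a lipid-sensing nuclear receptor, at 1.48-fold (adjusted p = 0.00924), with a median of 0.09. Without platelet replicate 1 it was 1 higher and 1 lower. With platelets before LPS over LPS alone 3 were higher and 1 lower (median 0.08), or 5 and 2 in the same comparison when platelet replicate 1 was left out of the fit. Irf8, an interferon regulatory factor of the monocyte lineage, was at 120.2, 93.8 and 110.02 CPM with LPS and 185, 192 and 180.1 CPM with platelets plus LPS, 1.72-fold higher without overlap (adjusted p = 4.90e-05). Pparg was 1.66-fold lower there (adjusted p = 0.00453).

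**Figure D5:**
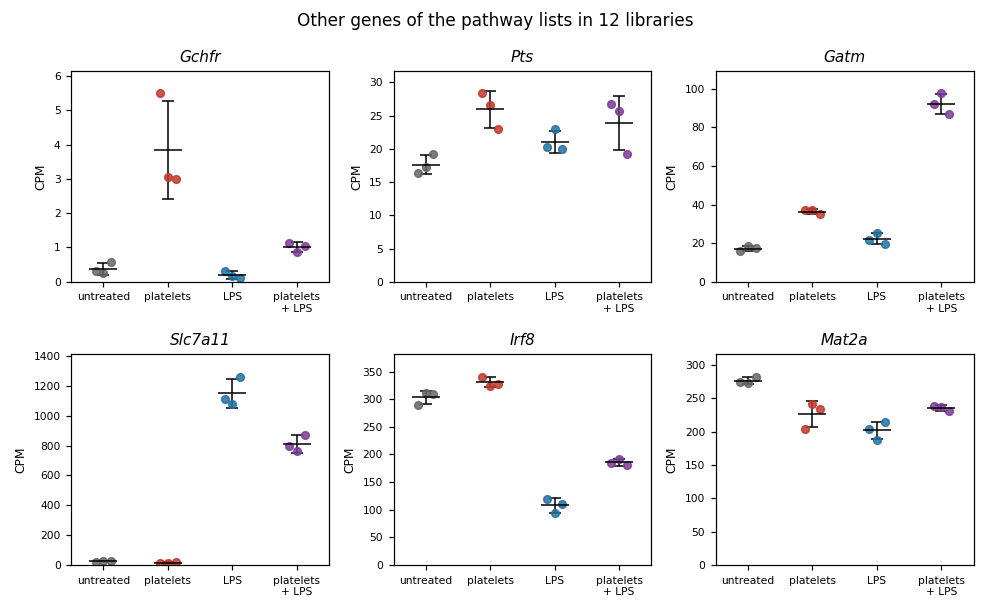
CPM of 6 named genes of the pathway lists in the 12 libraries, each on its own axis from 0; coloured points are libraries and black lines the group mean ± SD (n = 3). Gatm and Gchfr lay higher in each platelet-exposed group than in its partner without platelets, Slc7a11 rose with LPS, and Irf8 lay between its untreated and its LPS level when platelets preceded LPS.

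Patterns over the 12 libraries were compared by Pearson's correlation of log2 CPM among 8323 genes with at least 10 CPM in some group, as a description in which the libraries share their groups. Nearest to Arg1 were Cd9 (r = 0.976), Ctsk (0.976), Apoe (0.973) and Hba-a1 (0.971), an alpha globin gene with a near-identical copy, Hba-a2, so that the division of counts between the 2 is uncertain. Hba-a1, also an erythroid marker below, entered the comparison only through the platelet group, with a mean of 11.6 CPM (8.03 to 17.6). Its means were 0.243 CPM untreated, 0.0452 CPM with LPS and 6.22 CPM with platelets plus LPS. Nearest to Odc1 were Cd200r4 (0.948), Ccnb1 (0.939), Pltp (0.932) and F7 (0.930). Nearest to Nos2 were Ifit1bl1 (1.000), Nod1 (0.999), Mov10 (0.998) and Tor3a (0.998), values set largely by the distance between libraries with and without LPS.

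Markers of other blood cells moved with the same groups. All 11 platelet markers were found. Their summed level was 3790 to 4497 CPM in untreated, 3388 to 6084 CPM in platelet, 3903 to 4717 CPM in LPS and 3620 to 3902 CPM in platelet plus LPS libraries, most of it Pf4, which untreated cells also held. The less abundant Gp9 and Gng11 had group means of 10.1 and 99.5 CPM with platelets against 0.0117 and 1.81 CPM untreated, and of 4.10 and 64.6 CPM with platelets plus LPS against 0.0241 and 2.01 CPM with LPS, while Gp6 was at 0 in untreated cells and Gp1ba with LPS. Not all of the list lay that way: Ppbp, the most abundant after Pf4, was at 174 CPM with platelets against 242 CPM untreated and at 140 CPM with platelets plus LPS against 253 CPM with LPS, and Itgb3 was at 0.870 CPM with platelets against 0.914 CPM untreated. The 6 erythroid markers summed to 1.19 to 2.07 CPM in untreated, 11.9 to 24.8 CPM in platelet, 0 to 0.609 CPM in LPS and 7.12 to 9.35 CPM in platelet plus LPS libraries. The part of these cells in the levels of Arg1, Gchfr, Gatm and the other genes higher with platelets was not tested.

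In the lists of other blood cells, 1 or 2 genes made up most of the sum wherever it was high. The 9 neutrophil markers summed to 359 to 384 CPM in untreated, 195 to 219 CPM in platelet, 230 to 290 CPM in LPS and 157 to 180 CPM in platelet plus LPS libraries, with Ly6g, Mpo or Elane at 0 in each group. Most of this was Mmp8, with group means of 342, 167, 230.01 and 121 CPM in that order, while S100a8 was at 16.4, 24.2, 17.8 and 24.2 CPM and S100a9 at 6.29, 8.38, 6.68 and 10.2 CPM. The 7 basophil or mast cell markers summed to 1.37 to 2.56, 7.85 to 9.71, 104 to 107 and 82.7 to 93.8 CPM. Hdc, the histidine decarboxylase gene, made up nearly all of the sum with LPS (103 CPM) and with platelets plus LPS (80.4 CPM), whereas Mcpt8 was at 0.290, 2.54, 0.122 and 1.77 CPM and Prss34 at 0.868, 3.66, 0.324 and 4.15 CPM in the 4 groups. The 5 macrophage markers summed to 862 to 952, 749 to 1001, 3645 to 3737 and 2945 to 3134 CPM, of which Adgre1 held 794, 773, 3626 and 2992 CPM. Mertk was at 26.8, 55.3, 2.39 and 4.60 CPM, Cd163 at 15.0, 15.6, 1.43 and 1.81 CPM and Mrc1 at 57.6, 51.3, 46.8 and 33.8 CPM. The 4 eosinophil markers summed to 1.33 to 2.18, 1.34 to 2.91, 11.04 to 11.4 and 6.72 to 8.02 CPM, mostly Ccr3, with Epx and Prg2 at 0 in both groups without platelets. The 6 dendritic cell markers summed to 1.67 to 2.77, 5.53 to 7.77, 43.7 to 51.4 and 41.4 to 47.6 CPM, with LPS mostly Ccr7 and Xcr1. T or NK cell and B cell markers stayed under 1 CPM in sum in every library, with Cd3e, Ncr1 and Pax5 at 0 throughout. The 5 stromal or endothelial markers summed to 1.79 to 2.72, 2.75 to 3.39, 4.02 to 6.38 and 9.51 to 10.96 CPM in the 4 groups. Of these, Kdr held 1.05, 1.66, 3.93 and 8.85 CPM. The part of these cells in the results was not tested either.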

How the data were processed

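Raw counts per gene of 12 libraries (4 groups of 3) were used as the authors deposited them. Per the labels' protocols, a RNeasy Plus Micro kit gave the RNA, a SMARTer v4 kit the amplified cDNA and Nextera XT the libraries. Tools listed in the submitters' processing notes, with no role stated, are Salmon 1.5.2, STAR 2.7.9a, fastp 0.23.1 and featureCounts of Subread 2.0.1. Genome build, annotation and strand: not given in the sources used here. Reads of overlapping or antisense genes therefore cannot be told apart. Groups follow the sample titles.

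Library sizes were corrected by TMM, and counts were filtered with filterByExpr (13151 genes kept) and fitted with edgeR 4.0.16 in R 4.3.3 (glmQLFit and glmQLFTest) as 4 group means with 8 residual degrees of freedom. Adjusted p-values are Benjamini-Hochberg over all genes tested, with a threshold of 0.05. Standard errors are quasi-likelihood Wald errors. Floors are 3 counts, and intervals of counts cover counting error only. The comparisons share groups, so their results are not independent. The fitting was tested on simulated data. DESeq2 1.42.0, other scalings, filters, a replicate block and leaving out each library were tried. The members, lists and motifs were chosen with earlier results of these data known. Beside the 9 members, the text names up to 3 called genes of each list and comparison by smallest p, and the 4 genes nearest in pattern to Nos2, Arg1 and Odc1. Promoters were to be shown for Nos2 and Arg1, and those of Ass1 and Gch1 were chosen in their place after the tables were seen. Some genes that this rule names are not reported here.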

Additional observations from a re-analysis of the deposited data

Results flagged for a closer look

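The platelet effect with LPS differed from that without LPS in 4 genes among the 9 members and 68 list genes tested, by the interaction term of the edgeR fit. Of all genes tested, 0.859% had a higher and 0.722% a lower interaction. Arg2 had an interaction of −1.91 on the log2 scale (adjusted p = 0.0191), since platelets went with a rise without LPS and with a log2 difference of 0.10 with LPS. Its adjusted p was 0.0519 without untreated replicate 2, 0.0563 without LPS replicate 1 and 0.0542 without platelet plus LPS replicate 2. Gatm had an interaction of 0.96 (adjusted p = 0.00319), its platelet rise being 1.08 without and 2.04 with LPS. Irf8 had an interaction of 0.66 (adjusted p = 0.0146), with an adjusted p of 0.0583 without untreated replicate 2 and 0.0542 without platelet plus LPS replicate 2. Mat2a, which makes the methyl donor S-adenosylmethionine, had an interaction of 0.51 (adjusted p = 0.0387), from 276 ± 5.20 to 226 ± 19.5 CPM with platelets alone and from 202 ± 13.1 to 235 ± 4.31 CPM with platelets before LPS (SD, n = 3), and its adjusted p lay between 0.0501 and 0.123 when any library other than platelet replicates 1 and 3 and LPS replicate 3 was left out.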

How the results depend on the processing

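Of the single-gene values recomputed under the alternatives, 902 kept direction and side of the threshold, 60 lost and 9 gained the call, and 31 changed sign. With library size alone, LPS gave −0.24 for Asl, −0.31 for Slc7a1 and −0.32 for Odc1 without platelets, and −0.57 for Asl (adjusted p = 4.06e-05), −0.30 for Slc7a1 and −0.31 for Odc1 after platelets. Leaving out 1 library, the values of Slc7a1 and Odc1 after platelets ranged from −0.0188 to 0.136 and from −0.0122 to 0.0868. The interaction became 0.0123 for Slc7a1 and 0.0141 for Odc1 with library size alone, 0.00793 and 0.00971 with no filter, and, for Slc7a2, −0.0232 with DESeq2 size factors and −0.0248 with its Wald test. Leaving out 1 library, it ranged from −0.0849 to 0.0696 for Slc7a1, −0.390 to 0.331 for Slc7a2 and −0.0557 to 0.0311 for Odc1. Without platelet replicate 1, platelets alone gave 1.86 for Arg2 (2.0 with it), 1.33 for Ass1 (1.22) and 0.36 for Odc1 (0.33). The values were 0.51 for Pts (0.56), 1.09 for Gatm (1.08), −0.59 for Glul (−0.48) and −0.49 for Slc7a11 (−0.69). They were 0.68 for Paox (0.90), 0.27 for Sat1 (0.36), −0.32 for Azin1 (−0.41) and −0.43 for Pparg (−0.57).

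Members lower with LPS numbered 4 with library size alone and 0 at an absolute log2 of at least 1, and members higher with platelets before LPS 2 at that size. Among platelet-exposed cells, members lower with LPS numbered 2 with DESeq2 size factors or its Wald test, 4 with library size alone, 0 at that size and 1 to 2 leaving out 1 library (2 without platelet replicate 1 or 3). Members with a lower interaction numbered 0 to 1 leaving out 1 library. The cause of these changes was not tested.

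For the pathway lists, with library size alone, LPS gave 11 lower genes of nitric oxide synthesis, 14 lower and 2 higher of polyamines, 4 lower carriers and 0 higher of the urea cycle list, and platelets before LPS gave 0 lower carriers and 1 lower polyamine gene. Of all 13151 genes tested, that scaling gave 2133 higher and 5975 lower with LPS. With platelets before LPS it gave 542 higher and 340 lower. For platelets alone, lower polyamine genes numbered 0 with library size alone, DESeq2 size factors, the replicate block or the 2 groups only, and higher ones 1 with either of the last 2. The urea cycle list then had 2 higher by the DESeq2 Wald test and 2 lower by it, with no filter or a stricter one, and 0 lower with the 2 groups only, carriers 2 lower with no filter and 0 with the 2 groups only, and transcription factors 1 higher by the Wald test. With LPS in the 2 groups only, 2 of the urea cycle list were higher. For platelets before LPS, the 2 groups only gave 2 higher of nitric oxide synthesis, 1 higher carrier, 2 lower polyamine genes and 2 lower factors, the Wald test 1 lower polyamine gene and 2 lower factors, DESeq2 size factors or a stricter filter 1 lower polyamine gene, and no filter 1 higher carrier. Interactions of polyamine genes numbered 0 higher with either other scaling or the block and 1 lower by the Wald test, those of factors 2 higher by the Wald test or with no filter, and those of carriers 1 higher with no filter. Leaving out 1 library, counts for platelets alone ranged from 1 to 2 and 0 to 2 (urea cycle, higher and lower), 0 to 2 for both directions of polyamines, 1 to 2 (nitric oxide, higher) and 0 to 1 (carriers and factors, higher). Those for LPS ranged from 0 to 2 (urea cycle, higher), those for platelets before LPS from 0 to 1 (urea cycle, lower), 0 to 0 (carriers, lower) and 0 to 2 (polyamines, higher), and interactions from 0 to 1 (polyamines) and 0 to 2 (factors).

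Over all genes, platelets alone gave 478 higher and 376 lower, but 773 and 518 by DESeq2's Wald test, 607 and 577 with no filter and 261 and 154 with the 2 groups only. Platelets before LPS gave 580 and 377, but 788 and 583 by the Wald test and 725 and 620 with the 2 groups only. Whether equal replicate numbers mark paired libraries cannot be told from these data, with 3 libraries in each group. Correlations of deviations in 18 same-number pairs ran from −0.228 to 0.140, 1 was over 0.1, and 2 of 12 libraries correlated best with their own number. With the replicate block, members called stayed at 4 and 0 with platelets alone, 5 and 1 with LPS, 4 and 0 with platelets before LPS, 5 and 1 for LPS after platelets, and 0 and 1 for the interaction, and the block gave 0 lower of the urea cycle list with platelets before LPS. Among all genes it gave 364 and 257 with platelets alone. Arg2 without LPS, Gchfr and Nos2 in platelet-exposed cells without LPS rest on few counts, which limits their precision.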
